A study of Homo sapiens with 9 samples.

Results

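The genes described here carry the transforming growth factor beta (TGF-beta) signal from the secreted protein to the nucleus, and their RNA was measured in HCN-2 cells after transfection with either of 2 microRNA mimics. They comprise the ligands TGFB1, TGFB2 and TGFB3, the receptors TGFBR1 and TGFBR2, the receptor SMADs SMAD2 and SMAD3, the common SMAD, SMAD4, and the inhibitory SMAD, SMAD7. Every row of the array table was taken for which the platform annotation gives exactly 1 gene symbol and that symbol is 1 of these 9. This gave 9 rows of 8 genes, out of 36176 rows of 33616 genes. TGFB2 had 0 such rows, since its 1 row lists several symbols, so no value is given for it. SMAD7 had 2 rows, called the brighter and the dimmer row below; the dimmer row has no Entrez identifier, and which transcript it measures is not given.

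HCN-2 is described by the study as a line of human cortical neuronal cells. A mimic of miR-140-3p, a mimic of miR-126-5p or a scrambled RNA designed to match no target (the scrambled control) was transfected, and total RNA of each set was measured on 3 arrays, 9 in all. Each transfection used 3 µL of a 20 µM stock, and RNA was collected 24 h after transfection. The arrays were meant to show how the 2 microRNAs act on the differentiation of these cells. All 3 sets went through transfection, and untransfected cells were not a group. The sources do not say whether arrays of the same set stem from separate cultures, so the p-values measure the spread between these arrays, which may be technical. The methods name Clariom S chips with WT-Plus kits, whereas the deposited description names Clariom D chips and an amplification of the RNA before labeling.

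The values are log2 signals, so a difference of 1 is a doubling. Arrays of 1 set correlated at 0.990 to 0.994 over the 36176 rows and arrays of different sets at 0.987 to 0.992. The lowest member value on any array was 8.52, above the 95th percentile of the 612 negative control rows, which ran from 7.36 to 7.81 over the arrays. Of 11 measured neuronal markers, 2 (MAP2 and NEFM) had means above the negative controls, and RBFOX3, SYP, SNAP25, NEFL, DCX and STMN2 did not. Of 11 fibroblast and mesenchymal markers 10 did, among them the collagen gene COL1A2, the proteoglycan genes DCN and LUM, and PDGFRB, and the mean of that list ran from 13.5 to 13.9 over the 9 arrays. Most of these marker values go against the neuronal name of the line, and the identity of the cells was not tested. The markers of astrocytes passed for 1 of 6 (ALDH1L1), those of oligodendrocytes for 0 of 5, those of microglia and leukocytes for 1 of 8 (CD68) and those of endothelium for 0 of 6. CD68, a lysosomal membrane protein, fell by 1.09 (log2) in the miR-126-5p set against the scrambled control (limma, adjusted p = 0.0156). With miR-140-3p its difference from the control was -0.89 (limma, adjusted p = 0.0859), and between the mimics it was 0.20. The arrays measured whole cultures, in which fewer cells of a type and less RNA per cell cannot be told apart.

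TGF-beta is secreted in a latent complex and, once released, binds the type II receptor TGFBR2, which phosphorylates and activates the type I receptor TGFBR1. TGFBR1 phosphorylates SMAD2 and SMAD3, which join SMAD4, enter the nucleus and act on target genes together with other DNA-binding proteins. SMAD7 is itself induced by the pathway and shuts it down at the receptor. In the nervous system the pathway is known for its part in the survival and maturation of neurons and in the response of glia to injury, and in mesenchymal cells for driving matrix genes such as the collagens.

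The mature sequences of the 2 transfected microRNAs are shown because they name the treatments. They are the natural human sequences from RefSeq (GRCh38.p14), 5′ to 3′, with the seed (bases 2 to 8) in capitals, and the exact sequence of the commercial mimics is not given.
hsa-miR-140-3p: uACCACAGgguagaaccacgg
hsa-miR-126-5p: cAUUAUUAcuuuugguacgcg
The hsa-miR-140-3p sequence lies in MIR140 at chr16:69933142-69933162 on the plus strand, and the hsa-miR-126-5p sequence in MIR126 at chr9:136670616-136670636 on the plus strand. The seeds are different. No sites for either microRNA were searched in the transcripts of the members.

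No member row passed the adjusted threshold in any comparison. The members past the study's own, unadjusted thresholds were TGFB1 and SMAD3, lower with miR-126-5p than with the scrambled control, and the dimmer SMAD7 row, higher with miR-140-3p than in either of the other sets. TGFBR2 also had all its miR-126-5p arrays below the 6 others, by small gaps and without passing those thresholds. The genes for both receptors, for SMAD2 and for SMAD4 had differences of at most 0.30 on the log2 scale in all 3 comparisons. Here "adjusted" means a Benjamini-Hochberg adjusted p under 0.05 over the 36176 rows, from limma with the 9 arrays in 1 fit. Those thresholds, an unadjusted p under 0.05 with a difference of over 25% (the higher group over the lower), are called the unadjusted thresholds. The plot of member values by array shows the 9 rows side by side.

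**Figure D1:**
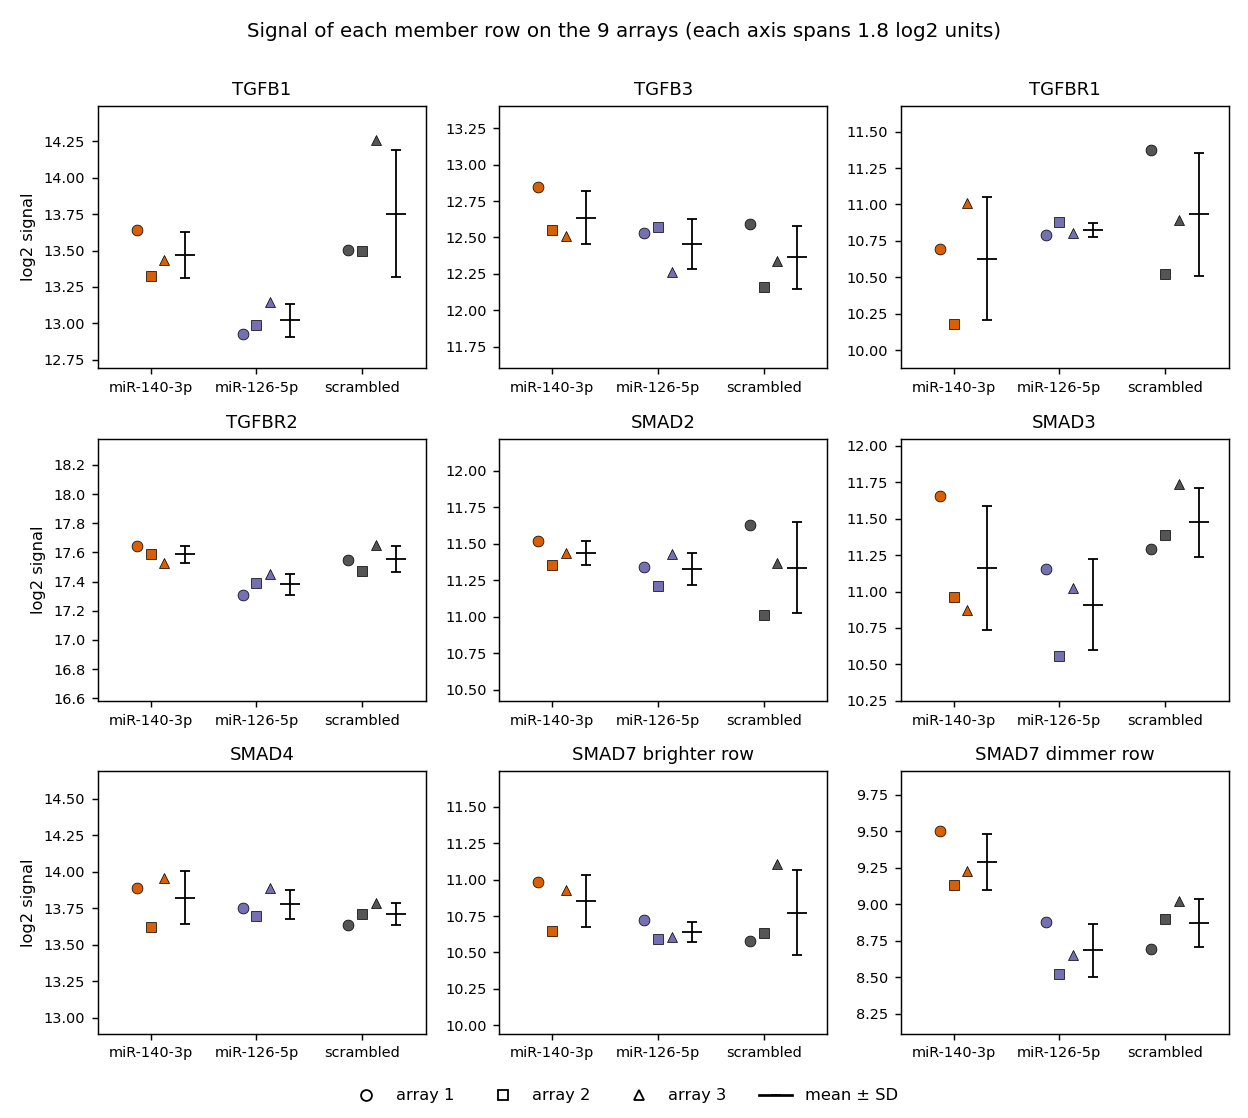
Log2 signal (vertical axis) of the 9 member rows on each array, with the miR-140-3p, miR-126-5p and scrambled control sets from left to right, 1 symbol per array and the mean ± SD of each set (n = 3) beside it. TGFB1 and SMAD3 show miR-126-5p arrays below all scrambled control arrays, and the dimmer SMAD7 row shows miR-140-3p arrays above all others.

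Among the ligands, TGFB1, the most widely expressed isoform, had log2 values of 13.64, 13.33 and 13.44 on the miR-140-3p arrays, 12.93, 12.99 and 13.14 on the miR-126-5p arrays, and 13.50, 13.50 and 14.26 on the scrambled control arrays. All 3 miR-126-5p arrays were below the 6 others, while the miR-140-3p and control arrays overlapped, and 1 control array, replicate 3, stood well above its own set. The means were 13.47 ± 0.16 for miR-140-3p, 13.02 ± 0.11 for miR-126-5p and 13.75 ± 0.44 for the scrambled control (SD, n = 3 each). With miR-126-5p TGFB1 was lower than with the scrambled control by a log2 difference of -0.73 ± 0.21 (SE; 95% confidence interval -1.19 to -0.27), or 1.66-fold. This had an unadjusted p of 0.00443 and an adjusted p of 0.239 in limma. Without control replicate 3 the difference was -0.48 (limma, unadjusted p = 0.0204), and the row stayed past the unadjusted thresholds with every alternative run. On that array the median of the 7400 rows at least as bright as the dimmest member was also the highest of the 9, 11.37 against 11.04 to 11.28 on the others; its part in the result was not tested. The TGFB1 difference between miR-140-3p and the scrambled control was -0.28 (interval -0.74 to 0.17, limma, adjusted p = 0.753). Between the mimics it was 0.45 (interval -0.01 to 0.91, adjusted p = 0.557), with no overlap of the arrays.

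TGFB3, the isoform known for its role in palate closure and scar-free healing, had values of 12.84, 12.55 and 12.51 on the miR-140-3p arrays, 12.53, 12.57 and 12.26 on the miR-126-5p arrays, and 12.59, 12.16 and 12.34 on the scrambled control arrays. The 3 sets overlapped. The difference from the scrambled control was 0.27 with miR-140-3p (interval -0.11 to 0.66) and 0.09 with miR-126-5p (interval -0.29 to 0.48), and between the mimics it was 0.18 (interval -0.21 to 0.57). Whether TGFB1 and TGFB3 differed from each other in their response was not tested.

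Of the receptors, TGFBR2, the type II receptor that binds the ligand, was brighter than 99.8% of the rows on average. Its values were 17.64, 17.59 and 17.53 on the miR-140-3p arrays, 17.31, 17.39 and 17.45 on the miR-126-5p arrays, and 17.55, 17.47 and 17.65 on the scrambled control arrays. The miR-126-5p arrays lay below all 6 others, by a gap of 0.02 to the nearest control array and of 0.08 to the nearest miR-140-3p array. The differences were small: 0.03 with miR-140-3p (interval -0.29 to 0.35) and -0.17 with miR-126-5p (interval -0.49 to 0.14) against the control, and 0.20 between the mimics (interval -0.11 to 0.52).

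TGFBR1, the type I receptor kinase that phosphorylates the receptor SMADs, spread widely in 2 of the sets. Its values were 10.70, 10.18 and 11.01 on the miR-140-3p arrays, 10.79, 10.88 and 10.81 on the miR-126-5p arrays, and 11.37, 10.53 and 10.89 on the scrambled control arrays. The miR-126-5p arrays fell within the range of both other sets, with an SD of 0.05 against 0.42 in each of the others. Its differences were -0.30 with miR-140-3p (interval -0.83 to 0.22) and -0.11 with miR-126-5p (interval -0.63 to 0.42) against the control, and -0.20 between the mimics (interval -0.72 to 0.33).

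Of the receptor SMADs, SMAD3, which binds DNA directly, had values of 11.65, 10.96 and 10.88 on the miR-140-3p arrays, 11.15, 10.56 and 11.02 on the miR-126-5p arrays, and 11.29, 11.39 and 11.74 on the scrambled control arrays. All 3 miR-126-5p arrays were below all 3 control arrays, and with miR-140-3p 2 arrays were below the control and 1 (replicate 1) within its range. With miR-126-5p the difference from the scrambled control was -0.56 ± 0.24 (SE; interval -1.08 to -0.05), 1.48-fold lower, with an unadjusted p of 0.0342 and an adjusted p of 0.435 in limma. It no longer passed the unadjusted thresholds without miR-126-5p replicate 2 (-0.39), without control replicate 2 (-0.61) or without control replicate 3 (-0.43), nor without moderation of the variance (-0.56) or after quantile normalization again (-0.39), with limma adjusted p-values of 0.453 or more in these 5 alternatives. With miR-140-3p the difference was -0.31 (interval -0.83 to 0.20, limma, adjusted p = 0.76), and without miR-140-3p replicate 1 it was -0.56 and passed the unadjusted thresholds (limma, adjusted p = 0.495). Between the mimics it was 0.25 (interval -0.26 to 0.77).

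SMAD2, the receptor SMAD whose main splice form does not bind DNA by itself, had values of 11.52, 11.35 and 11.44 on the miR-140-3p arrays, 11.34, 11.21 and 11.43 on the miR-126-5p arrays, and 11.63, 11.01 and 11.37 on the scrambled control arrays. The control arrays spanned those of both mimic sets. Its differences were 0.10 with miR-140-3p (interval -0.29 to 0.49) and -0.01 with miR-126-5p (interval -0.40 to 0.38) against the control, and 0.11 between the mimics (interval -0.28 to 0.50). Whether SMAD2 and SMAD3 differed in their response was not tested.

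SMAD4, the partner shared with the bone morphogenetic protein branch, had values of 13.89, 13.62 and 13.96 on the miR-140-3p arrays, 13.75, 13.70 and 13.89 on the miR-126-5p arrays, and 13.64, 13.71 and 13.78 on the scrambled control arrays. The sets overlapped, and SMAD4 had the narrowest intervals of the members after TGFBR2. Its differences were 0.11 with miR-140-3p (interval -0.23 to 0.46) and 0.07 with miR-126-5p (interval -0.27 to 0.41) against the control, and 0.04 between the mimics (interval -0.30 to 0.39).

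The 2 rows of SMAD7, which recruits ubiquitin ligases to the active receptor, gave different results, and the difference between the rows was not tested. The brighter row had values of 10.98, 10.65 and 10.93 on the miR-140-3p arrays, 10.72, 10.59 and 10.61 on the miR-126-5p arrays, and 10.58, 10.64 and 11.11 on the scrambled control arrays. Its sets overlapped, with differences of 0.08 (miR-140-3p, interval -0.31 to 0.47) and -0.13 (miR-126-5p, interval -0.53 to 0.26) against the control and 0.21 between the mimics (interval -0.18 to 0.61).

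The dimmer SMAD7 row had values of 9.50, 9.13 and 9.23 on the miR-140-3p arrays, 8.88, 8.52 and 8.65 on the miR-126-5p arrays, and 8.69, 8.90 and 9.02 on the scrambled control arrays. All 3 miR-140-3p arrays were above the 6 others, and the miR-126-5p and control arrays overlapped. Set against miR-126-5p, the miR-140-3p arrays were higher on this row by 0.60 ± 0.17 (SE; interval 0.23 to 0.98), or 1.52-fold, with an unadjusted p of 0.0044 and an adjusted p of 0.456 in limma, and it stayed past the unadjusted thresholds with every alternative run on the row. Against the scrambled control the difference with miR-140-3p was 0.42 ± 0.17 (SE; interval 0.04 to 0.79, limma, unadjusted p = 0.0332, adjusted p = 0.544). That call was lost without miR-140-3p replicate 1 (0.31), without control replicate 1 (0.33) or without control replicate 2 (0.43, limma, adjusted p = 0.537). With miR-126-5p the difference from the control was -0.19 (interval -0.57 to 0.19). When the 2 rows were averaged, SMAD7 was 0.41 higher in the miR-140-3p set than in the miR-126-5p set (limma, unadjusted p = 0.0337) and did not pass against the scrambled control.

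**Figure D2:**
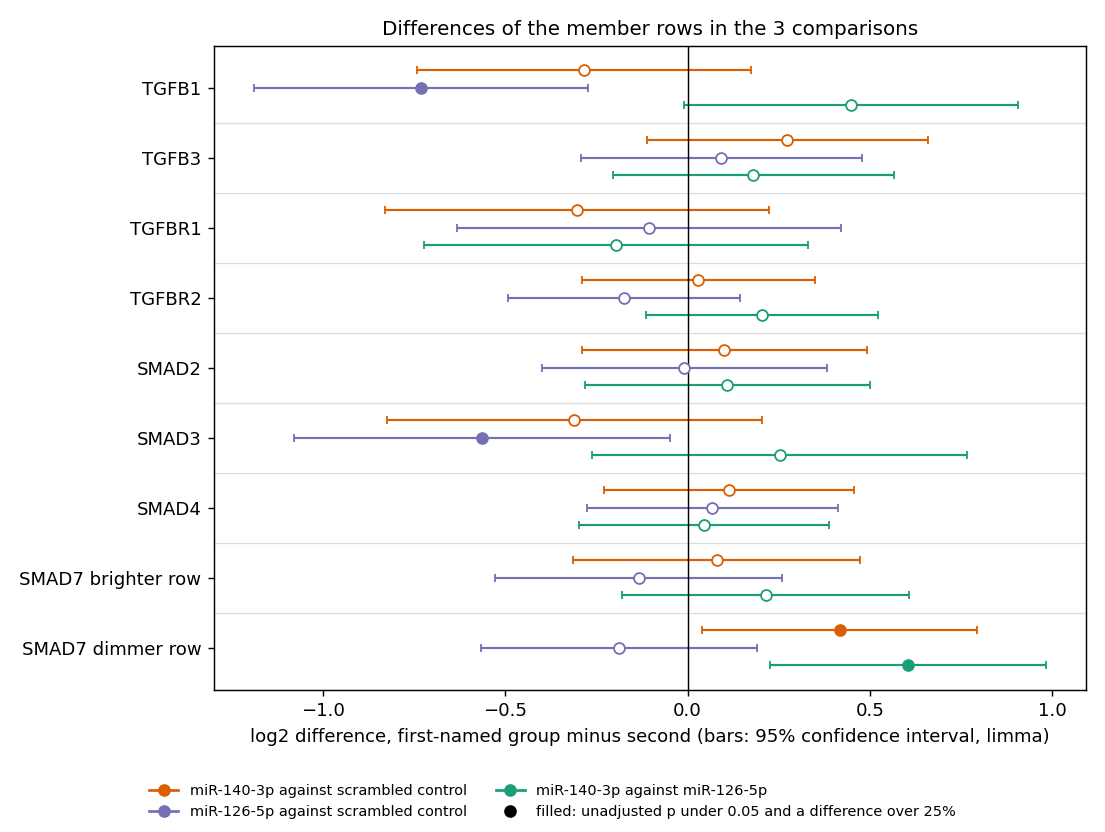
Log2 differences (horizontal axis) of the 9 member rows, with the 95% confidence interval from limma, in the 3 comparisons named in the legend. Filled points passed the unadjusted thresholds: TGFB1 and SMAD3 with miR-126-5p (-0.73 and -0.56) and the dimmer SMAD7 row with miR-140-3p against the control and against miR-126-5p (0.42 and 0.60).

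Counted over the members, 6 of the 9 rows were higher and 3 lower in the miR-140-3p set than in the scrambled control, and 0 passed the adjusted threshold, which 0.238% of all rows passed. At the unadjusted thresholds 1 row passed as higher and 0 as lower, beside 3.35% and 5.16% of all rows and 1.47% and 6.43% of the 7400 rows at least as bright as the dimmest member. The same row was the only 1 whose arrays did not overlap between the groups, beside 12.2% of all rows and 13.7% of the rows as bright. The median of the 9 differences was 0.08, beside -0.02 for all rows and -0.05 for the rows as bright.

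In the miR-126-5p set 2 rows were higher and 7 lower than in the scrambled control, and 0 passed the adjusted threshold (0.379% of all rows did). At the unadjusted thresholds 0 rows passed as higher and 2 as lower, beside 3.57% and 6.83% of all rows and 1.53% and 13.5% of the rows as bright. Those 2 and TGFBR2 did not overlap with the control, beside 16.5% of all rows and 24.8% of the rows as bright. The median was -0.13, beside -0.04 for all rows and -0.12 for the rows as bright. The members as a set were not tested against either.

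Between the mimics 8 rows were higher and 1 lower in the miR-140-3p set, and 0 passed the adjusted threshold, as did 0% of all rows. At the unadjusted thresholds 1 row passed as higher and 0 as lower, beside 5.07% and 3.99% of all rows and 9.55% and 2.12% of the rows as bright. The arrays of 3 rows did not overlap, beside 15.7% of all rows and 24.8% of the rows as bright. The median was 0.20, beside 0.02 for all rows and 0.06 for the rows as bright. The 2 comparisons against the scrambled control share its 3 arrays, and each mimic set enters 2 of the 3 comparisons, so these counts are not independent of each other. The background itself depends on the scaling. As deposited, 60.6% of all rows past the unadjusted thresholds were lower in the miR-140-3p set and 65.6% in the miR-126-5p set, against 50.8% and 50.4% after quantile normalization of these rows again.

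**Figure D3:**
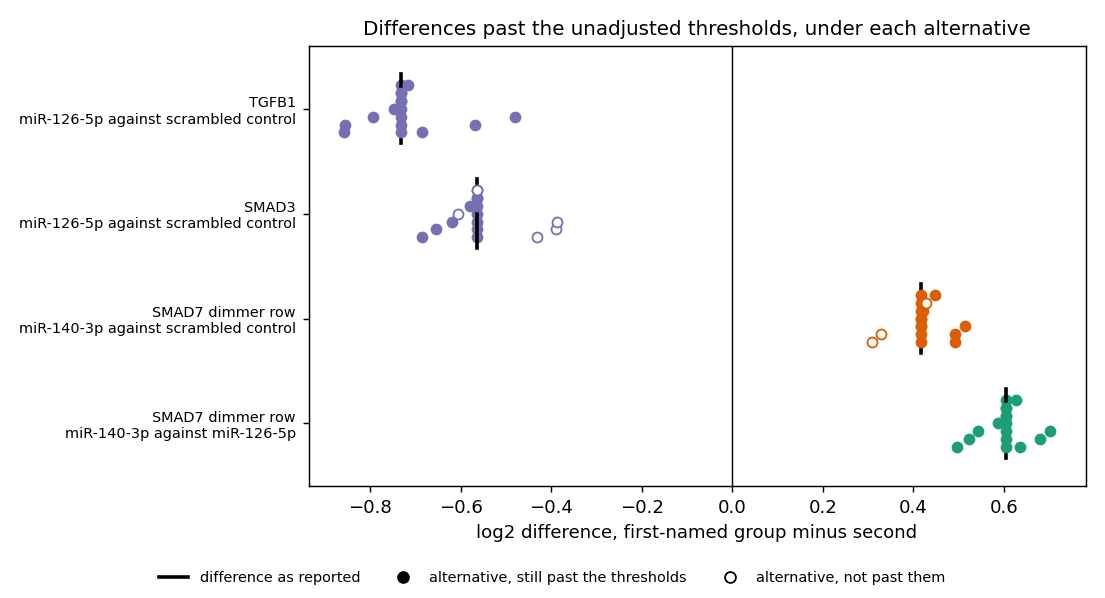
Log2 differences (horizontal axis) of the 4 member results past the unadjusted thresholds under every alternative run, with the reported value as a bar, filled points for alternatives that kept the call and open points for those that lost it. TGFB1 with miR-126-5p ran from -0.86 to -0.48 and the dimmer SMAD7 row between the mimics from 0.50 to 0.70, all filled, while SMAD3 with miR-126-5p (-0.69 to -0.39) and the dimmer SMAD7 row with miR-140-3p against the control (0.31 to 0.51) include open points.

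The promoters of TGFB1 and SMAD3, the members past the unadjusted thresholds with miR-126-5p, and of SMAD7 are shown to describe their sequences. Each is the RefSeq window (GRCh38.p14) from 250 bases before to 50 bases after the outermost start of the gene, 5′ to 3′ along the gene. In TGFB1 and SMAD3 the capitals mark the GC box, GGGCGG or CCGCCC on the other strand, which binds SP1 family proteins, and in SMAD7 the SMAD-binding core, CAGAC or GTCTG on the other strand.
TGFB1, chr19:41353873-41354172, minus strand: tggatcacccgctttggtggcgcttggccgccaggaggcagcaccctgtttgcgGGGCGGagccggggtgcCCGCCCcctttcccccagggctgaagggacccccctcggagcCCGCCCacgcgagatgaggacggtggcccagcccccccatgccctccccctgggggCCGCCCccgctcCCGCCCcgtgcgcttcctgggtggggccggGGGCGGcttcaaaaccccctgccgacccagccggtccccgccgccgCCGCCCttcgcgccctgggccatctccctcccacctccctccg
SMAD3, chr15:67065352-67065651, plus strand: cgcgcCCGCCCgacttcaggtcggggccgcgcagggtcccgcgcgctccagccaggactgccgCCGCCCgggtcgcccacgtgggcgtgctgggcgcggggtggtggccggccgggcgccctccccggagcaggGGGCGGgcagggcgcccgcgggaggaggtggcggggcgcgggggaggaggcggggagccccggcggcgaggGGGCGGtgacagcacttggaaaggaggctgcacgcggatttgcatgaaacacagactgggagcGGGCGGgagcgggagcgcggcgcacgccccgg
SMAD7, chr18:48950916-48951215, minus strand: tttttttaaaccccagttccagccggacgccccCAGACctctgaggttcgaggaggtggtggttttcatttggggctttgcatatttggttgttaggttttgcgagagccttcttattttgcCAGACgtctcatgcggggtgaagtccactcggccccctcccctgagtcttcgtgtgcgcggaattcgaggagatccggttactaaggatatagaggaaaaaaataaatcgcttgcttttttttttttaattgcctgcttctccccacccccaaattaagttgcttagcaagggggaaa
The TGFB1 window held 7 GC boxes at a GC content of 77.3% and the SMAD3 window 5 at 80.3%, with 1 SMAD-binding core left in lower case, whereas the SMAD7 window had a GC content of 48.3%, 0 GC boxes and 2 SMAD-binding cores. Over 35116 promoter windows of this length, 45.0% held a GC box and 45.3% a SMAD-binding core. Of the outermost windows of the 9 named members 4 held a GC box and 4 a core, which is close to those shares. Besides TGFB1 and SMAD3, the GC box was in the windows of SMAD2 and SMAD4, which did not pass the unadjusted thresholds in any comparison. A match is a description of letters and not a shown binding site, and the arrays do not tell which start was used.

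The rest of the pathway was described with 8 lists of genes by role, holding 138 genes with a row out of 146 listed, 119 of them brighter than the median row. Of the 138, 44 had a mean over the 9 arrays at or below 7.58, the mean 95th percentile of the negative controls. For these no difference is given in the text, though the plot of the lists includes them. The rows as bright are again those at least as bright as the dimmest member row. They are not matched to the brightness of any list, and these 44 genes were dimmer than all of them. With miR-126-5p 107 of the 138, or 77.5%, were lower than with the scrambled control, beside 55.9% of all genes and 71.8% of the rows as bright as the members. At the unadjusted thresholds 23 passed as lower and 1 as higher, 5 of these 24 being genes not above the negative controls, and 0 passed the adjusted threshold (lowest adjusted p = 0.159, limma). The lower calls were 16.7% of the genes and the higher 0.725%, beside 6.93% and 3.62% of all genes and 13.5% and 1.53% of the rows as bright as the members. Their median difference was -0.18, beside -0.04 for all genes and -0.12 for the rows as bright. After quantile normalization again the median was -0.06 (0.04 for the rows as bright), 14 passed as lower and 3 as higher, and the count of 24 calls became 12 without miR-126-5p replicate 1 or without control replicate 3. On the interferon-stimulated genes, which set the same arrays apart far more, the array means were 9.05 to 9.73 in the miR-140-3p set, 8.11 to 9.83 in the miR-126-5p set and 12.7 to 13.6 in the scrambled control; the part of that shift in the pathway values was not tested.

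Among the genes that store and release the ligand, 4 of 17 passed the unadjusted thresholds as lower with miR-126-5p and 0 as higher. The lower calls were 23.5% of this list, beside 6.93% of all genes and 13.5% of the rows as bright. LTBP3, which tethers latent TGF-beta to the matrix, had values of 9.36, 9.31 and 9.32 on the miR-140-3p arrays, 9.25, 9.25 and 9.33 on the miR-126-5p arrays, and 9.79, 9.74 and 9.89 on the scrambled control arrays. The arrays of both mimics lay below all control arrays, with differences of -0.47 for miR-140-3p (limma, adjusted p = 0.387) and -0.53 for miR-126-5p (limma, adjusted p = 0.212). LTBP4, of the same family, differed by -0.87 with miR-126-5p, but its arrays overlapped those of the control. Between the mimics LRRC32, which holds latent TGF-beta at the cell surface, was 0.80 higher in the miR-140-3p set (limma, adjusted p = 0.459), and THBS1, the thrombospondin that can activate it, 0.35 higher, both without overlap.

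The receptors outside the members gave 1 lower call of 10 with miR-126-5p, the type I activin receptor ACVR1B, whose signal was not above the negative controls. This was 10% of the list, beside 6.93% of all genes and 13.5% of the rows as bright. TGFBR3, the co-receptor betaglycan, had a difference of 0.45 with miR-140-3p against the control (limma, adjusted p = 0.532). Between the mimics ENG, the co-receptor endoglin, was 0.41 higher in the miR-140-3p set. The calls for the type I receptors ACVR1C (miR-140-3p against the control) and ACVRL1 (between the mimics) came from signals not above the negative controls. The same held for the called ligands, GDF11 and GDF15 with miR-126-5p, GDF11 with miR-140-3p, and INHBC between the mimics. With miR-126-5p these lower calls were 2 of 14, or 14.3% of the list, beside 6.93% of all genes. The lower call with miR-140-3p and the higher call between the mimics were 1 of 14 each, or 7.14%, beside 5.17% and 5.12% of all genes. Of the 4 other SMADs 0 passed the unadjusted thresholds in any comparison; SMAD1 and SMAD5, receptor SMADs of the bone morphogenetic protein branch, were above the negative controls, and SMAD6 and SMAD9 were not.

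Of 24 signal modulators 1 passed the unadjusted thresholds as lower and 1 as higher in the miR-126-5p set against the control. Each was 4.17% of the list. The lower and higher calls were 6.93% and 3.62% of all genes and 13.5% and 1.53% of the rows as bright. USP11, a deubiquitinase reported to act on the type I receptor, differed by -0.56 from the control and by 0.64 between the mimics, and LEMD3, an inner nuclear membrane protein that binds receptor SMADs, by 0.42 from the control. DAB2, an endocytic adaptor, was 0.47 higher in the miR-140-3p set than in the miR-126-5p set.

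The SMAD partners, the DNA-binding proteins and cofactors that act with SMADs, had 6 of 15 genes past the unadjusted thresholds as lower with miR-126-5p. This is 40% of the list, beside 6.93% of all genes and 13.5% of the rows as bright. Between the mimics 5 of 15, or 33.3%, passed as higher in the miR-140-3p set, beside 5.12% of all genes and 9.55% of the rows as bright. FOS, a subunit of the AP-1 factor, had values of 14.56, 13.85 and 14.02 on the miR-140-3p arrays, 13.37, 13.49 and 13.44 on the miR-126-5p arrays, and 14.43, 13.80 and 14.40 on the scrambled control arrays. Its 3 miR-126-5p arrays lay below the 6 others, and the difference was -0.78 against the control (limma, adjusted p = 0.227) and 0.71 between the mimics (limma, adjusted p = 0.459). ATF3, a stress-induced factor of the same broad class, differed by -0.63 with miR-126-5p. RUNX1 was 0.75 higher in the miR-140-3p set than in the miR-126-5p set, without overlap, and 0.56 higher than in the control, with overlapping arrays. RUNX2, among the 6 lower with miR-126-5p, and RUNX3, called as higher in the miR-140-3p set against both others, were not above the negative controls.

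Of 43 TGF-beta target genes 8 passed the unadjusted thresholds as lower with miR-126-5p and 0 as higher, and 35 of the 43 differences were negative. The calls were 18.6% of the list, beside 6.93% of all genes and 13.5% of the rows as bright. The negative differences were 81.4%, beside 55.9% of all genes and 71.8% of the rows as bright. JUNB, an early target that also forms AP-1, had values of 12.85, 12.03 and 12.47 on the miR-140-3p arrays, 11.77, 11.61 and 11.87 on the miR-126-5p arrays, and 12.41, 12.63 and 12.75 on the scrambled control arrays. Its miR-126-5p arrays were below all 6 others, with a difference of -0.84 against the control (limma, adjusted p = 0.159), the lowest adjusted p of the 138 genes in that comparison. COL1A1, the main chain of type I collagen, had values of 15.40, 15.13 and 15.27 on the miR-140-3p arrays, 14.92, 14.82 and 14.79 on the miR-126-5p arrays, and 15.25, 15.29 and 15.63 on the scrambled control arrays. It too was below all other arrays with miR-126-5p, by -0.55 against the control (limma, adjusted p = 0.256). For COL1A2, on the same list, the difference was -0.10 (limma, adjusted p = 0.876), and its arrays overlapped those of the control. Between the mimics 10 of the 43 passed as higher with miR-140-3p, or 23.3%, beside 5.12% of all genes and 9.55% of the rows as bright. The smallest p-values were those of LIF, a cytokine that signals in neural cells (0.87, limma, adjusted p = 0.449), and JUNB (0.70). SNAI1, also called, was not above the negative controls. With miR-140-3p against the control 0 of 43 passed, beside 3.37% higher and 5.17% lower calls of all genes. In the non-SMAD branch 1 of 14 passed with each mimic against the control, PIK3R1, a regulatory subunit of PI3-kinase (-0.45 with miR-140-3p), and PARD6A, a polarity protein whose signal was not above the negative controls (miR-126-5p). Each was a lower call and 7.14% of the list, beside lower calls of 5.17% (miR-140-3p) and 6.93% (miR-126-5p) of all genes.

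Over the 138 genes, 24 passed the unadjusted thresholds as higher and 1 as lower in the miR-140-3p set against the miR-126-5p set, 0 of them past the adjusted threshold. The higher calls made up 17.4% and the lower 0.725%, beside 5.12% and 4.04% of all genes and 9.55% and 2.12% of the rows as bright, with a median of 0.16 beside 0.02 for all genes and 0.06 for the rows as bright. By sign, 80.4% of the genes were higher, beside 52.5% of all genes and 61.2% of the rows as bright. Of the 25 calls 4 were genes not above the negative controls. The 25 calls became 10 without miR-140-3p replicate 1, 11 without miR-126-5p replicate 1 and 15 without miR-126-5p replicate 2 or 3. With miR-140-3p against the scrambled control 4 passed as higher and 3 as lower, and 3 of these 7 were genes not above the negative controls. The calls were 2.9% and 2.17% of the genes, beside 3.37% and 5.17% of all genes and 1.47% and 6.43% of the rows as bright. The median was -0.01, beside -0.02 for all genes and -0.05 for the rows as bright.

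**Figure D4:**
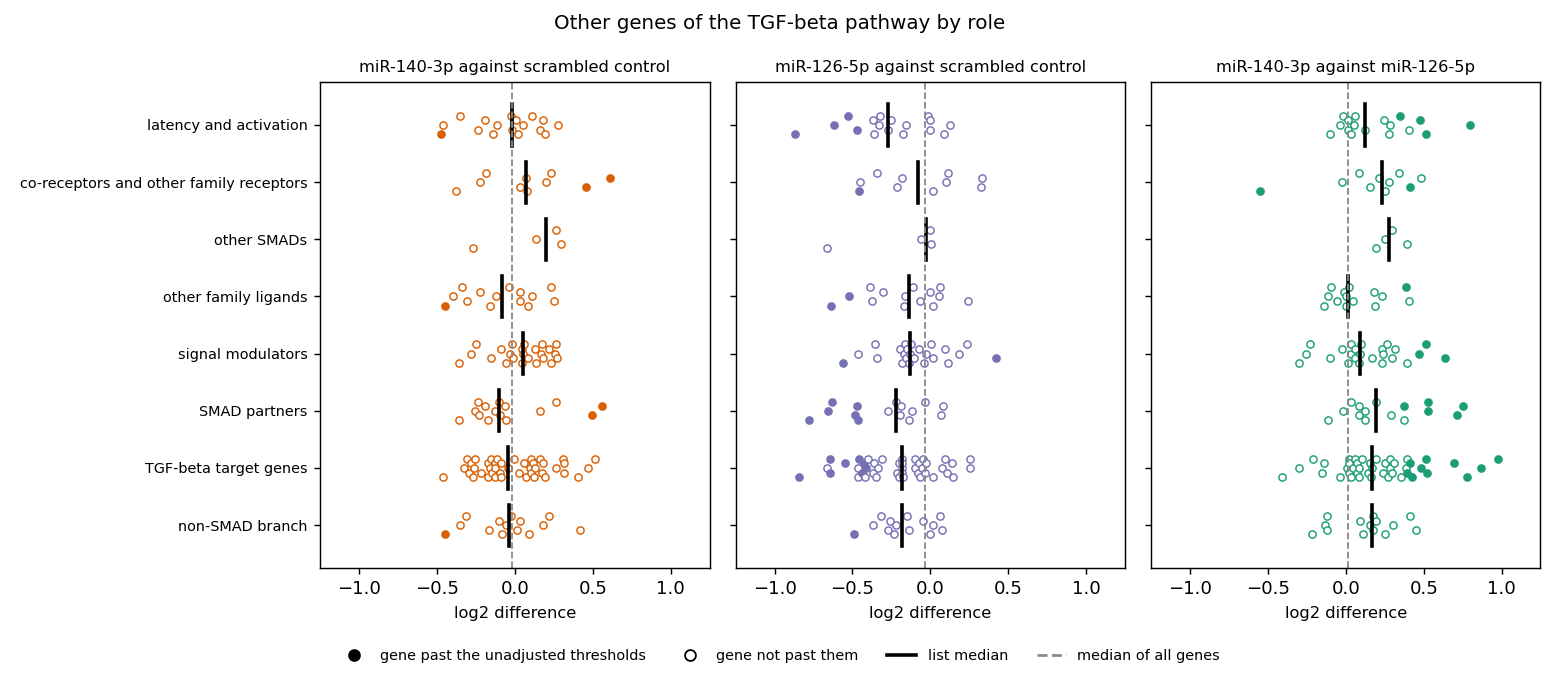
Log2 differences (horizontal axis) of the pathway genes outside the members, by list and comparison, with 1 point per gene in each list that holds it. Filled points are genes past the unadjusted thresholds, a bar is the median of each list and a dashed line the median of all genes. A gene on more than 1 list has a point in each and counts once among the 138. With miR-126-5p against the scrambled control 107 of 138 genes were lower, and between the mimics 111 of 138 were higher in the miR-140-3p set; the 44 genes not above the negative controls are included.

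Over the 9 arrays, the 36 pairs of member rows had Pearson correlations from -0.34 to 0.84, with a median of 0.23. The points of each pair share the array and its scaling, and no p is given. The highest value was that of TGFB1 with TGFBR2 (0.842), and TGFB1 with SMAD3 had 0.776. Among 17070 other genes brighter than the median row, the pattern most like that of TGFB1 was that of TPD52L2 (0.988), of TGFB3 that of ELL2 (0.975) and of TGFBR2 that of SURF4 (0.968). For SMAD2 it was MSL1 (0.981), for SMAD3 LAMP1 (0.98), for SMAD4 FADS2 (0.933), for TGFBR1 SYF2 (0.971), and for SMAD7 KDM2A (brighter row, 0.976) and ZCCHC14 (dimmer row, 0.971). These are the highest of many values over 9 arrays and describe likeness of pattern only.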

How the data were processed

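Total RNA of transfected HCN-2 cells was measured on 9 arrays, 3 for each of the miR-140-3p, miR-126-5p and scrambled control sets, assigned from the submitters' labels. The authors deposited 1 table of log2 values, with 138745 rows and a column per array. RMA, Partek and Affymetrix Expression Console are named in the submitters' processing notes, without version or role. RMA corrects the background, quantile-normalizes the arrays and summarizes the probes of a row, so a change shared by most rows would be largely removed. No genome build is given for the rows, so they carry no coordinates.

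Platform annotation gave 1 symbol to 36176 rows and several to 1119; 101450 are not listed, and 2995 control rows were left out. Of the rows with 1 symbol, 25516 matched the RefSeq gene table by Entrez identifier and 0 symbols changed. All 36176 rows were tested two-sided with limma 3.58.1, run in R 4.3.3 (eBayes after lmFit, the 3 groups in 1 fit, 6.32 prior degrees of freedom) and checked first on simulated data. For the lists, the brightest row stands for its gene. The named genes are all members, and in each list and comparison the 2 with the smallest p past the unadjusted thresholds. Genes named beyond these in the list descriptions (SMAD1, SMAD5, SMAD6, SMAD9, RUNX2, SNAI1, COL1A2, cell type markers) were chosen after their values were seen or as markers. The members and lists were chosen with earlier results of these data known.

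Alternatives were 2 groups per fit, an intensity trend with robust estimation, no moderation of the variance, quantile normalization again, median centring, every row but control rows, brighter rows only, the mean of all rows of a gene, a replicate block, and leaving out each array. The number of arrays limits the precision, and the values carry no detection call. Promoter windows and microRNAs came from RefSeq tables (GRCh38.p14); protein sequences were not used here.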

Additional observations from a re-analysis of the deposited data

How the results depend on the processing

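Over 27 member results and their alternatives, 462 values in all, 430 kept their direction and their side of the unadjusted thresholds, 8 lost the call, 9 gained it and 15 changed sign; 0 passed the adjusted threshold. The cause of these changes was not tested. On leaving out 1 array, the differences that changed sign ran, with miR-140-3p against the scrambled control, from -0.017 to 0.25 for the brighter SMAD7 row (negative without control replicate 1), from -0.013 to 0.077 for TGFBR2 and from -0.062 to 0.25 for SMAD2 (both negative without control replicate 2). Those of miR-126-5p against the control ran from -0.17 to 0.14 for SMAD2 (positive without miR-126-5p replicate 2, 0.05, and without control replicates 1, 0.14, and 3, 0.00665), from -0.31 to 0.11 for TGFBR1 (positive without control replicate 1), from -0.0083 to 0.21 for TGFB3 (negative without control replicate 2) and from -0.23 to 0.032 for the brighter SMAD7 row (positive without control replicate 3). Between the mimics they ran from -0.024 to 0.15 for SMAD4 (negative without miR-140-3p replicate 3) and from -0.39 to 0.028 for TGFBR1 (positive without miR-140-3p replicate 2). After quantile normalization again the sign changed for TGFBR1 (0.077), SMAD2 (0.17) and the brighter SMAD7 row (0.036) with miR-126-5p against the control, and for SMAD4 between the mimics (-0.052).

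Members past the unadjusted thresholds with miR-140-3p against the control were 0 with the mean of all rows of a gene and 0 to 1 on leaving out an array. With miR-126-5p they were 1 without moderation of the variance, 1 after quantile normalization again and 1 to 2 on leaving out an array, SMAD3 being the row lost. Between the mimics they were 2 with 2 groups per fit, 2 with an intensity trend, 2 with median centring, 2 with brighter rows only and 1 to 2 on leaving out an array, TGFB1 being the added row. All rows past the adjusted threshold numbered 0 for both mimics without moderation, 46 to 124 (miR-140-3p) and 80 to 304 (miR-126-5p) on leaving out an array, and, with miR-126-5p, 214 with an intensity trend and 226 with brighter rows only. Past the unadjusted thresholds they numbered 10320, 11938 and 10784 over every row but control rows for the miR-140-3p set, the miR-126-5p set and the mimics against each other, 1772 (miR-140-3p) and 2156 (mimics) with brighter rows only, and on leaving out an array 2584 to 3409, 2594 to 4352 and 2130 to 4054. Other pathway genes past them numbered 4 with miR-140-3p without moderation, and on leaving out an array 6 to 9, 12 to 31 and 10 to 28.

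The labels number the arrays of each set alike. Deviations from the set means correlated at -0.0609 to 0.107 between arrays of 1 number, and 4 of 9 arrays were closest to their own number, so the numbers were not taken as pairs. With a replicate block 2 members passed between the mimics, where TGFB1 (0.45) had a limma unadjusted p of 0.0497 and an adjusted p of 0.556.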
